A study of Mus musculus with 16 samples.

Results

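The mitosis and G2/M genes described here are 58 genes whose products carry a cell from the end of G2 through chromosome segregation and cytokinesis. They were taken by symbol from a list, and all 58 stood in both tables of normalized counts, out of 16612 genes in either table. RNA was sequenced from bone marrow of leukemia-bearing mice, in 4 libraries for each of 4 groups: tumor from WT hosts, tumor from IL-6 KO hosts, stroma from WT hosts and stroma from IL-6 KO hosts. Tumor is the mCherry+ sort of B-cell acute lymphoblastic leukemia (B-ALL) cells, which carry BCR-ABL, lack Arf and express luciferase, and which were the same cell population in both hosts, so that tumor cells differ in their host and not in their own Il6 genotype. Stroma is the mCherry- sort of the same marrow, that is, every live host cell left after red cell lysis rather than a mesenchymal preparation. Hosts were C57BL/6J mice, WT or with a germline Il6 deletion, 6 to 8 weeks old, injected intravenously with 500000 leukemic cells, left untreated (UTX) and killed 8 days later. The sources used here do not say which mouse or sex gave which library, so p-values measure the spread between these libraries. Il6 itself was not analysed here.

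Entry into mitosis is driven by the kinase Cdk1 with its cyclins, which Cdc25 phosphatases and Plk1 help to switch on. Chromosomes are then condensed by condensin, attached to the spindle through kinetochores and watched by the spindle assembly checkpoint, until the anaphase-promoting complex (APC/C) marks cyclins and securin for destruction and separase cuts cohesin. Most of these genes are transcribed in G2 under B-Myb, FoxM1 and the MuvB core, and their RNA is widely read as a sign of dividing cells. In marrow, erythroid precursors, neutrophil precursors and precursor B cells are the populations that divide most.

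The promoters of these genes carry 2 known G2/M elements, and 5 of them are shown to let a reader see their layout: the master kinase, 3 genes of the APC/C and separase step, and topoisomerase II alpha. Each run covers bases 150 to 6 before the RefSeq start (GRCm38.p6), 145 bases long and read 5′ to 3′. Capitals mark the CCAAT box (CCAAT, or ATTGG on the other strand) and the cell cycle genes homology region, or CHR (TTTGAA or TTCGAA, or TTCAAA on the other strand).
Cdk1 (chr10:69352918-69353062, minus strand): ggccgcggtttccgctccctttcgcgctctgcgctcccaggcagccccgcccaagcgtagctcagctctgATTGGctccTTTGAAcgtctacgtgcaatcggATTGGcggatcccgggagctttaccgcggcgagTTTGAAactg
Cdc20 (chr4:118437349-118437493, minus strand): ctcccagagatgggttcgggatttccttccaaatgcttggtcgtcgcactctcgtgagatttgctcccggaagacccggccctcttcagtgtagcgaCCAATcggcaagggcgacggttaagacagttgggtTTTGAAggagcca
Ube2c (chr2:164769779-164769923, plus strand): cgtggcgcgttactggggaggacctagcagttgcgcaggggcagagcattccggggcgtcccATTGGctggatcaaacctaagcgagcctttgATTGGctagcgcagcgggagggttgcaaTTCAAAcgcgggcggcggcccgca
Espl1 (chr15:102296143-102296287, plus strand): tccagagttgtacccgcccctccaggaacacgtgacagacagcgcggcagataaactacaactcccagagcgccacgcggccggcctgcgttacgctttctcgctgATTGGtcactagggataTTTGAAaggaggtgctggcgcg
Top2a (chr11:99024195-99024339, minus strand): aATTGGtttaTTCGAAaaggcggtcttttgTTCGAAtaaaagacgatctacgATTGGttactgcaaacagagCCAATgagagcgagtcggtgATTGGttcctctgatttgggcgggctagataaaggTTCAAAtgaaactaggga
Of the 58 members, 48 had a window of 300 bases in the RefSeq table, from 250 before to 50 after the start. A CCAAT box stood in 34 of the 48 (70.8%), against 41.1% of the 27025 genes with a window. A CHR stood in 37 (77.1%), against 21.7%, and in 33 of these 37 it lay within 50 bases of the start. Both elements stood together in 32 windows (66.7%), against 8.61% of all genes. A pair of CCAAT boxes in the same direction with starts 30 to 35 bases apart, as in Cdk1 and Ube2c, stood in 9 windows (18.8%), against 1.36%.

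Levels of these genes were high in all 4 groups. A normalized count is an estimated read count divided by the library's size factor. Divided by the length of the longest annotated transcript in kilobases, the median member stood at percentile 86.2 of genes in WT tumor, 85.9 in IL-6 KO tumor, 92.2 in WT stroma and 87.6 in IL-6 KO stroma. Every member but one stood above percentile 50 in all 4 groups, and the exception, the checkpoint protein Mad2l1, stood at percentile 46.9 in WT stroma. That value depends on its longest transcript of 7557 nt. By normalized count alone Mad2l1 stood at percentile 70.0 in WT stroma and 77.9 in IL-6 KO stroma. Top2a, which untangles sister DNA, was the highest member per kilobase in tumor, with 5855 normalized counts per kilobase in WT and 6204 in IL-6 KO. Ccna2, Cdc20 and Mki67 followed in WT tumor with 3898, 3759 and 3577 normalized counts per kilobase. In stroma the proliferation marker Mki67 led with 1894 normalized counts per kilobase in WT and 944 in IL-6 KO, and Top2a came next with 1033 and 566. The least abundant members per kilobase, in both genotypes, were Pttg1 (securin) and Cdc25c in tumor and Pttg1, Ttk and Mad2l1 in stroma. The 2 tables were normalized separately, so their normalized counts are not compared with each other, and an interaction of host genotype and compartment was not tested.

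The labels were checked against markers. In the tumor libraries 14 B-lineage markers summed to 151860 to 166824 normalized counts and the 18 erythroid markers in that table to 14602 to 17882. In the stroma libraries the same 14 B-lineage markers summed to 862 to 3069 and 25 erythroid markers to 73641 to 297708, so the order of the lists was opposite in the 2 compartments. The ratio of the summed members to the summed B-lineage markers was 1.92 to 2.08 in the 8 tumor libraries and 22.9 to 48.1 in the 8 stroma libraries. If all B-lineage RNA in stroma were leukemic, leukemic cells would account for 4.2% to 8.82% of the members' sum there. Stroma libraries differed in Rn7s1, a gene of the signal recognition particle RNA. Its share of the table's sum was 19.2% to 50.1% in WT. In IL-6 KO it was 71.5% to 79.0% in libraries 1 to 3 and 10.9% in library 4. Only this gene was counted, so its share is not that of all signal recognition particle RNA. The table's sum was 3.4e+07 in IL-6 KO 4, beside 4.41e+07, 4.23e+07 and 4.42e+07 in IL-6 KO 1 to 3 and at most 1.75e+07 in WT. Which RNA made up the rest in IL-6 KO 4 was not tested.

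**Figure D1:**
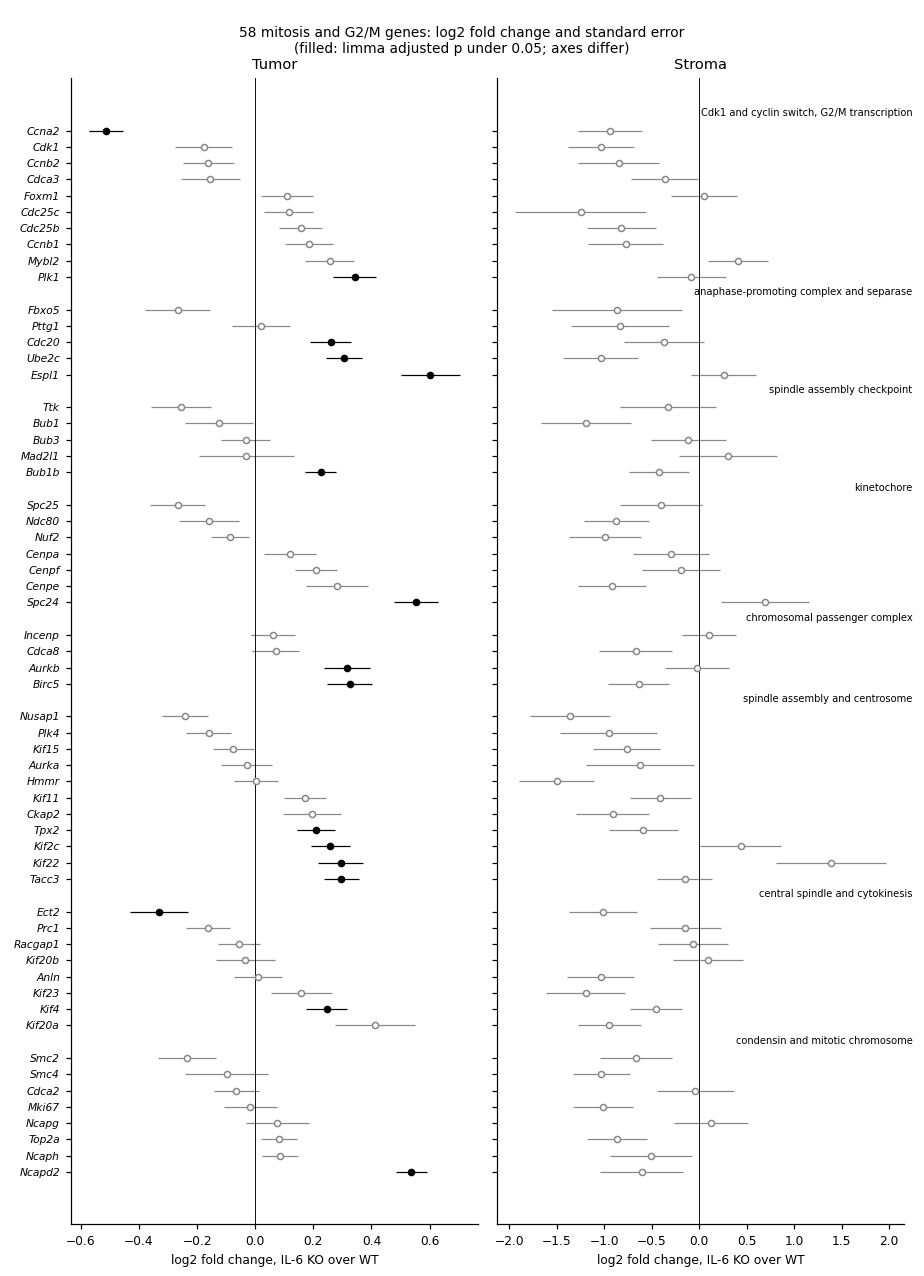
Log2 fold change of IL-6 KO over WT with its standard error (limma on log2 of normalized count + 1) for each of the 58 genes, by role, in tumor (left) and stroma (right), with filled points for an adjusted p under 0.05; the 2 axes have different ranges. In tumor 14 points are filled on the right and 2 on the left, between −0.51 and 0.60, while in stroma none is filled and 48 of 58 points lie left of 0.

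The first comparison asked whether leukemic cells growing in hosts without IL-6 differed in mitotic RNA. In tumor 14 of the 58 genes rose in IL-6 KO hosts and 2 fell, and the changes were small, at most 1.52-fold. Among those that rose were genes of chromosome condensation (Ncapd2), kinetochore attachment (Spc24), cyclin destruction (Ube2c, Cdc20) and cohesin cleavage (Espl1). The 2 that fell were cyclin A2 (Ccna2) and Ect2, a gene of cytokinesis. Among all 14493 genes tested in tumor, 10.6% rose and 9.16% fell at the same threshold (limma, adjusted p under 0.05), and among the 7368 genes with a mean at or above that of the lowest member the shares were 17.1% and 9.83%. The members' shares, 14 and 2 of 58, are 24.1% and 3.45%. Under quantile normalization 8 rose and 3 fell. The shares of all genes in that fit are not given here, so these counts cannot be set against the shares above. Over all 58 genes, 34 differences were positive, beside 49.3% of all genes, and 24 negative, with a median log2 fold change of 0.073, beside −0.0059 over all genes tested. This median was 0.037 without IL-6 KO 3, and with quantile normalization it was 0.021, beside 0.024 over all genes. In 15 of the 58 members every IL-6 KO library stood above every WT library, beside 13.6% of all genes. In 2 of the 58 every IL-6 KO library stood below, beside 12% of all genes. The number called was 7 without IL-6 KO 1 or IL-6 KO 4, 8 without WT 3 and 10 without WT 2. All genes called in these fits numbered 1617, 1569, 1722 and 1791, beside 2870 with every library. When each library was left out in turn, 7 genes (Ccna2, Espl1, Ncapd2, Plk1, Spc24, Tacc3 and Ube2c) passed in all 8 fits. In bulk RNA of this kind, a different share of cells in G2 and mitosis and a different amount of RNA per cell cannot be told apart, in either direction.

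Of the 10 genes of the Cdk1 and cyclin switch, 1 rose and 1 fell. Ccna2 (chr3:36564865-36572150, minus strand), the cyclin that partners Cdk2 in S phase and Cdk1 in G2, had normalized counts of 11378, 12124, 11635 and 11095 in WT and 7657, 8457, 8206 and 8063 in IL-6 KO. The groups did not overlap, with the highest IL-6 KO library well under the lowest WT library. Its log2 fold change was −0.51 ± 0.058 (SE, n = 4 against 4, limma adjusted p = 0.00107), the largest fall among the members. Ccna2 overlaps Exosc9 on the opposite strand, whether the counting used strand is not stated, and the log2 fold change of Exosc9 in tumor was 0.0072. Plk1, the kinase that activates Cdc25 and later acts at centrosomes and kinetochores, had 5273, 4480.4, 4484 and 4485 in WT and 5889.6, 6369, 5698 and 5745 in IL-6 KO, and all 4 IL-6 KO libraries were above all WT libraries. Its log2 fold change was 0.34 ± 0.074 (adjusted p = 0.0131). The other members of this group did not pass the test. Cdk1 read 4358, 3419.7, 3250.5 and 3361 in WT and 3056, 2964, 3336 and 3301 in IL-6 KO, with overlapping groups because WT 3, at 3250.5, fell among the IL-6 KO libraries. Ccnb1, the main mitotic cyclin, read 7429.8, 6516, 6947 and 6874 in WT and 8328, 6839.7, 8655 and 7829.7 in IL-6 KO, and the groups overlapped. Foxm1, a transcription factor of the G2/M program, read 4926, 4257, 4971 and 4274 in WT and 5063, 4303, 5071 and 5466 in IL-6 KO, also with overlap. Their log2 fold changes were −0.18, 0.18 and 0.11 with adjusted p of 0.229, 0.138 and 0.421. The second B-type cyclin, Ccnb2, had a log2 fold change of −0.16 (adjusted p = 0.22), opposite in sign to Ccnb1. Mybl2 (B-Myb) did not pass either, at 0.26 ± 0.083 (adjusted p = 0.0556), although its 4 IL-6 KO libraries stood above all WT libraries. As a ratio within each library, Ccna2 over Ccnb1 was 1.53, 1.86, 1.67 and 1.61 in WT tumor and 0.919, 1.24, 0.948 and 1.03 in IL-6 KO tumor, and no IL-6 KO library reached the lowest WT ratio. Reads of Ccnb1 can be shared with its near-identical copies Ccnb1-ps and Gm12856, and those of Mybl2 with Gm3320, so their values are less certain.

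The APC/C and separase genes held 3 of the 14 that rose, among 5 measured. Espl1 encodes separase, the protease that cuts cohesin at anaphase (chr15:102296266-102324357, plus strand). It read 5329.9, 4068, 3866 and 4547 in WT and 7035, 6076, 6887 and 6871 in IL-6 KO, again without overlap. The log2 fold change of 0.60 ± 0.10 (adjusted p = 0.0051) was the largest rise among the members. Ube2c, the ubiquitin-conjugating enzyme that starts chains on APC/C substrates, read 3139, 2860.3, 2862 and 3009.8 in WT and 3768, 3597, 3582 and 3727 in IL-6 KO, and rose by 0.31 ± 0.061 on the log2 scale (adjusted p = 0.00949). Cdc20, the activator that brings substrates to the APC/C, read 6980.0, 6480.0, 6077 and 7425 in WT and 7991, 8368, 7905 and 7927 in IL-6 KO, and rose by 0.26 ± 0.071 (adjusted p = 0.0315). Both genes carry the CCAAT and CHR elements printed above. Fbxo5 (Emi1), which restrains the APC/C before mitosis, stood apart between genotypes as well. Every IL-6 KO library was below every WT library, but the log2 fold change of −0.27 ± 0.11 did not pass (adjusted p = 0.121). Securin (Pttg1), which holds separase inactive until anaphase, did not pass.

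Among the 5 checkpoint genes, Bub1b (BubR1) rose by 0.22 ± 0.053 on the log2 scale (adjusted p = 0.0176) and the other 4 did not pass. The checkpoint kinase Ttk (Mps1) had the smallest p of these 4 and read 1334, 1265, 1297 and 1228 in WT and 1027, 1011, 1315 and 967 in IL-6 KO. IL-6 KO 3 lay among the WT libraries and the other three below them, and the log2 fold change was −0.26 ± 0.10 (adjusted p = 0.108).

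At the kinetochore, 1 of 7 genes rose. Spc24, a subunit of the Ndc80 complex that links the kinetochore to microtubules (chr9:21755442-21760303, minus strand), read 1416, 1280.3, 1398 and 1410.4 in WT and 2223, 1992, 1994 and 1879.6 in IL-6 KO. The lowest IL-6 KO library exceeded the highest WT library, and the log2 fold change was 0.55 ± 0.077 (adjusted p = 0.0024). Its obligate partner in that complex, Spc25, read 1331, 1711, 1424 and 1480.2 in WT and 1202, 1356, 1194 and 1176 in IL-6 KO. All but IL-6 KO 2 lay below the WT range, and the log2 fold change of −0.27 ± 0.094 did not pass (adjusted p = 0.0733). The remaining subunits of the complex, Ndc80 and Nuf2, did not pass either, with negative log2 fold changes that became 0.060 and 0.15 with GC and length trends removed. Spc24 is a less certain value: its transcripts share a near-identical stretch with Malat1 and overlap Gm37376 on the opposite strand. Cenpe, the kinesin that carries chromosomes to the spindle equator, and Cenpf had log2 fold changes of 0.28 and 0.21 (adjusted p = 0.0873 and 0.071).

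The chromosomal passenger complex corrects wrong attachments and later directs cytokinesis. Of its 4 subunits 2 rose and all 4 differences were positive. Aurkb, its kinase, read 5614, 4458, 5017 and 5299 in WT and 6258, 5966, 6560.4 and 6515 in IL-6 KO, and rose by 0.32 ± 0.079 on the log2 scale (adjusted p = 0.0222). Birc5 (survivin) read 3145, 2905, 2782 and 2751 in WT and 3716, 3228, 3862 and 3717 in IL-6 KO, and rose by 0.32 ± 0.078 (adjusted p = 0.0191). For both, every IL-6 KO library stood above every WT library. Incenp and Cdca8 (borealin) did not pass.

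Of the 11 spindle and centrosome genes 4 rose. Tacc3, which stabilizes the microtubule bundles at kinetochores, read 4166, 4099, 4366 and 4003 in WT and 5019.9, 4846, 5367 and 5198 in IL-6 KO and rose by 0.30 ± 0.061 on the log2 scale (adjusted p = 0.0107). It overlaps Tmem129 on the opposite strand. Tpx2, the activator of Aurora A, rose by 0.21, the microtubule-depolymerizing kinesin Kif2c by 0.26 and the chromokinesin Kif22 by 0.29 (adjusted p = 0.0479, 0.0259 and 0.0285). Aurora A itself (Aurka) read 2097, 2721, 2384 and 2464 in WT and 2446, 2272, 2487 and 2237 in IL-6 KO, with full overlap and a log2 fold change of −0.029 (adjusted p = 0.845). Nusap1, which bundles microtubules near chromosomes, read 3130.3, 3059.9, 2713 and 2796 in WT and 2331, 2309, 2719.9 and 2537 in IL-6 KO. It overlaps Oip5 on the opposite strand. Only IL-6 KO 3 crossed into the WT range, just above WT 3, and the log2 fold change of −0.24 ± 0.081 did not pass (adjusted p = 0.0608). Hmmr, a spindle and centrosome protein, showed a log2 fold change of 0.0019 in tumor.

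Among the 8 genes of the central spindle and cytokinesis, the chromokinesin Kif4 rose by 0.25 ± 0.070 on the log2 scale (adjusted p = 0.0355) and Ect2 fell. Ect2, which is needed to build the contractile ring, read 3838, 4517, 3768 and 3938 in WT and 3108, 2805, 3768 and 3121 in IL-6 KO. IL-6 KO 3 stood at the level of WT 3 and the rest were below the WT range, with a log2 fold change of −0.33 ± 0.10 (adjusted p = 0.0418). Kif20a had a larger log2 fold change than Kif4, 0.41 ± 0.14, but its libraries varied more and it did not pass (adjusted p = 0.0609). On the opposite strand Kif4 overlaps Pdzd11 and Kif20a overlaps Cdc23, so that the same doubt over strand applies to both.

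Of the 8 genes of condensin and the mitotic chromosome 1 rose, with the smallest p of all members. Ncapd2, a regulatory subunit of condensin I (chr6:125168007-125191701, minus strand), read 16449, 14739.6, 15183 and 15165 in WT and 22202, 22608, 21822 and 22639 in IL-6 KO. That is 15384 ± 739 in WT against 22318 ± 386 in IL-6 KO (mean ± SD, n = 4 each). The log2 fold change was 0.54 ± 0.055 (adjusted p = 0.000719). Its transcripts share sequence with the small RNA gene Scarna10, so that this value is less certain. The core subunit Smc2, with the smallest p of the other condensin genes, read 6687, 8379, 6839 and 6297 in WT and 5753, 5503, 6729 and 5906 in IL-6 KO. IL-6 KO 3 lay within the WT range and the rest below it, with a log2 fold change of −0.23 ± 0.10 (adjusted p = 0.12). Smc4, Ncapg and Ncaph did not pass either, and the ratio of Ncapd2 to the core subunit Smc4 was 1.66 to 2.37 in the 4 WT libraries and 2.3 to 3.6 in the 4 IL-6 KO libraries. Mki67 read 34963, 36262, 39688 and 33037 in WT and 34869.6, 40831, 36011 and 30964 in IL-6 KO, and Top2a 31257, 30607, 31316 and 29106 in WT and 32085, 31694, 35404 and 30375 in IL-6 KO. For these 2 widely used proliferation markers the groups overlapped, with log2 fold changes of −0.017 ± 0.090 and 0.082 ± 0.062 (adjusted p = 0.917 and 0.381).

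**Figure D2:**
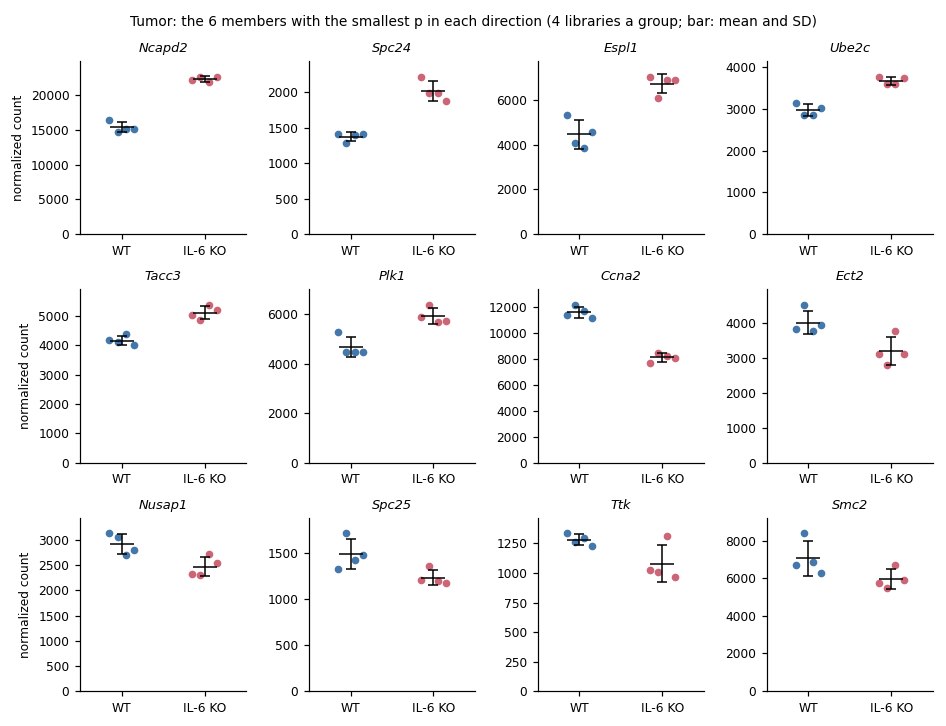
Normalized count in each tumor library (points; 4 WT and 4 IL-6 KO) with mean and SD for the 6 members with the smallest p in each direction; axes start at 0. Ncapd2, Spc24, Espl1, Ube2c, Tacc3, Plk1 and Ccna2 separate without overlap, while in Ect2, Nusap1, Spc25, Ttk and Smc2 at least 1 IL-6 KO library reaches the WT range.

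The changes in tumor ran with the base composition of the transcripts. GC content of the longest transcript ranged from 34.8% to 56.3% over the 58 genes, with a median of 46.5%. All 14 genes that rose were among the 29 at or above that median, called GC-rich here, and both that fell were among the 29 below it, called GC-poor. Median log2 fold changes were 0.22 in the GC-rich set and −0.057 in the GC-poor set, and the correlation of log2 fold change with GC content across the 58 genes, which share the same 8 libraries, was r = 0.56. When the trends of all genes with GC content and length were removed from each library, r became −0.13, 17 members were higher and 1 lower (adjusted p under 0.05, against 10.8% and 4.64% of 14483 genes), and the median became 0.16, beside 0.071 over all genes. Of the 16 calls, 10 remained: Ccna2, Espl1, Ncapd2, Spc24, Birc5, Bub1b, Tpx2, Kif2c, Kif22 and Kif4. Of the 6 that no longer passed, Aurkb and Tacc3 kept most of their size, with log2 fold changes of 0.26 ± 0.080 and 0.22 ± 0.073 (adjusted p = 0.052 and 0.0717). The other four became smaller, at 0.14 ± 0.070 for Plk1, 0.064 ± 0.067 for Cdc20, 0.11 ± 0.062 for Ube2c and −0.051 ± 0.083 for Ect2 (adjusted p = 0.204, 0.545, 0.242 and 0.706). In turn 8 GC-poor genes passed, all higher in IL-6 KO: Ccnb1, Cenpe, Cenpf, Ckap2, Hmmr, Kif11, Ncapg and Top2a. Members that had been lower without passing moved toward 0 or past it. Fbxo5 stood at −0.13, Ttk at −0.067, Spc25 at −0.052, Nusap1 at −0.018 and Smc2 at 0.071. Thus which of the mitotic genes passed depended on this step, whereas Ccna2 remained lower and Espl1, Ncapd2 and Spc24 remained higher.

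**Figure D3:**
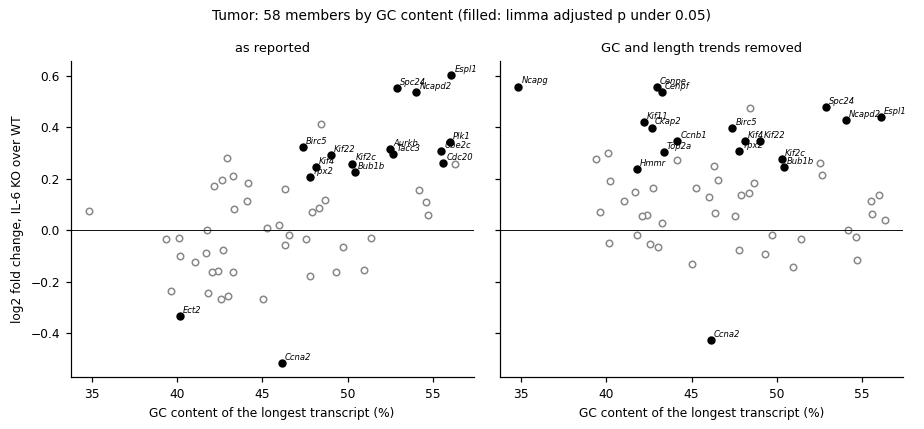
Log2 fold change of IL-6 KO over WT in tumor (vertical) against GC content of the longest transcript in percent (horizontal) for the 58 genes, as reported (left) and after GC and length trends were removed (right), with filled, named points for an adjusted p under 0.05. On the left the 14 filled points above 0 all belong to the GC-rich set, and on the right 17 filled points above 0 spread over both sets.

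Other mitotic genes, from lists of 119 of which 118 were tested, held 23 that rose and 14 that fell in tumor, with a median log2 fold change of 0.024. At the same threshold 10.6% of all genes tested rose and 9.16% fell. Among genes at or above the lowest member mean the shares were 17.1% and 9.83%. The counts of these lists are given for description beside those shares. Among 19 further G2/M regulators and MuvB subunits 3 rose and 6 fell, the latter including the MuvB subunits Lin9 (−0.42) and Lin37 (−0.50) and the Cdk1-binding subunit Cks2 (−0.41). Of 36 further kinetochore genes 7 rose and 4 fell, with Cenpb at 0.49, Cenpm at 0.53 and Cenpq at −0.45. Of 31 further spindle genes 6 rose and 2 fell, with the minus-end kinesin Kifc1 at 0.68, the pole organizer Numa1 at 0.41 and the microtubule polymerase Ckap5 at −0.48. Of 16 further APC/C genes 5 rose and 2 fell, and of 16 further chromosome genes 2 rose and none fell. With GC and length trends removed, 29 of the 118 were higher and 2 lower, beside 10.8% and 4.64% of all genes. Their median became 0.17, beside 0.071 over all genes. Then 4 of the further regulators were higher and 1 lower, of the kinetochore genes 9 and 0, and of the spindle genes 6 and 1. Most falls in these lists thus depended on this step. Values of their single genes in that fit are not given here. DNA replication genes, which act before mitosis, held 15 that rose and 1 that fell among 44, with a median log2 fold change of 0.13. Libraries of IL-6 KO tumor also held more neutrophil RNA: 10 of 16 mature neutrophil markers tested rose and none fell, and their summed normalized counts were 5352 to 6062 in WT and 8195 to 19125.5 in IL-6 KO, beside members' sums of 299187 to 317066 and 321611 to 345463. IL-6 KO 3, with the lowest neutrophil sum of its group, had the highest members' sum. Over all genes of the tumor libraries, normalized counts summed to 3.88e+07 to 4.46e+07 in WT and 4.73e+07 to 5.56e+07 in IL-6 KO. The higher members' sum in IL-6 KO thus depends on the size factors and is not a larger share of the signal. The part of neutrophil RNA in the members' values was not tested.

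The second comparison asked the same of the host marrow. In stroma none of the 58 genes passed (limma, adjusted p under 0.05), where 1 of all 12202 genes tested did (0.0082% lower, 0% higher). At an unadjusted p under 0.05, 19 members were lower in IL-6 KO and 1 was higher, beside 5.2% and 3.95% of all genes. The members' shares are 32.8% and 1.72%. Of the 58 differences 48 were negative and 10 positive, beside 49.4% positive over all genes, with a median log2 fold change of −0.61, beside −0.013 over all genes tested. In 8 of the 58 members (Cdk1, Ndc80, Nusap1, Hmmr, Kif20a, Ect2, Mki67 and Smc4) every IL-6 KO library stood below every WT library, beside 3.25% of all genes. In no member did all stand above, beside 2.54% of all genes. By role, the differences were negative in 8 of 10 genes of the Cdk1 switch, 4 of 5 of the APC/C, 4 of 5 of the checkpoint, 6 of 7 of the kinetochore, 3 of 4 passenger subunits, 9 of 11 of the spindle, 7 of 8 of cytokinesis and 7 of 8 of condensin and chromosomes.

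The members with the smallest p in stroma are given here with their values, none of which passed the test. Hmmr (chr11:40701395-40733422, minus strand) read 894, 904, 414 and 722 in WT and 139, 235, 369.5 and 309 in IL-6 KO, without overlap, with a log2 fold change of −1.50 ± 0.40 (adjusted p = 0.324). Nusap1 read 862, 949, 497 and 668 in WT and 120.1, 423, 339.6 and 354 in IL-6 KO, also without overlap, with −1.36 ± 0.42 (adjusted p = 0.412). Both serve the spindle, and Hmmr had the most negative difference of all members. The condensin core subunit Smc4 read 1891, 1853, 1721 and 1865 in WT and 612, 999, 1315 and 803 in IL-6 KO. Its WT libraries were close together and its IL-6 KO libraries lay spread out beneath them, with a log2 fold change of −1.03 ± 0.30 (adjusted p = 0.383). Mki67 read 19184, 22629, 13602 and 20808 in WT and 6729, 9025, 12313 and 9929 in IL-6 KO, with −1.01 ± 0.32 (adjusted p = 0.421). Cdk1 read 484, 468, 289 and 364 in WT and 209, 186, 249.8 and 139 in IL-6 KO, with −1.03 ± 0.35 (adjusted p = 0.434). In both, the highest IL-6 KO library was IL-6 KO 3 and the lowest WT library WT 3, and the groups did not overlap. Anln (anillin), the scaffold of the contractile ring, read 1835, 1766, 793 and 1409 in WT and 443, 700.1, 942 and 697 in IL-6 KO. Here WT 3 lay below IL-6 KO 3, and the log2 fold change was −1.04 ± 0.36 (adjusted p = 0.434).

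Top2a read 6274, 5994, 3432 and 5881 in WT and 2374, 2781, 4162 and 2499 in IL-6 KO in stroma, with one overlap between WT 3 and IL-6 KO 3, and a log2 fold change of −0.87 ± 0.31 (adjusted p = 0.44). Ccnb1 read 642, 1009, 621 and 728 in WT and 334, 776, 551 and 237 in IL-6 KO, and Birc5 894, 732, 516 and 696 in WT and 325, 531, 557 and 417 in IL-6 KO. Cdc20 read 726, 782, 321 and 395 in WT and 266, 479, 696 and 289.6 in IL-6 KO. These 3 overlapped between groups, with log2 fold changes of −0.78, −0.64 and −0.37 (adjusted p = 0.57, 0.567 and 0.815). Aurka read 378, 740.0, 143 and 377 in WT and 84.4, 387, 361 and 226 in IL-6 KO, with a WT range that held 3 of the 4 IL-6 KO libraries and a log2 fold change of −0.62 (adjusted p = 0.763). Differences near 0 were found for Plk1, Aurkb and Foxm1. Plk1 read 460.4, 636, 473 and 414 in WT and 728, 445, 539 and 261 in IL-6 KO. Aurkb read 542, 672, 449 and 776 in WT and 395, 876, 649 and 533 in IL-6 KO. Foxm1 read 614, 848, 428 and 391 in WT and 808, 445, 537 and 517 in IL-6 KO. Their log2 fold changes were −0.083 ± 0.36, −0.021 ± 0.34 and 0.050 ± 0.35, so that each standard error exceeded the difference.

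The 10 members with positive differences did not pass either. Kif22, the chromokinesin that pushes chromosome arms outward, was the one with an unadjusted p under 0.05 (adjusted p = 0.502, log2 fold change 1.39 ± 0.58) and read 680.3, 615, 134 and 568 in WT and 1158, 1470.2, 2114 and 417 in IL-6 KO. WT 3 was low and IL-6 KO 4 lay among the WT libraries. Spc24 read 181, 176, 140.2 and 169 in WT and 264, 385, 477 and 107 in IL-6 KO, and Kif2c 249.7, 223, 179 and 223 in WT and 278, 439.6, 465 and 132 in IL-6 KO. In both, IL-6 KO 4 stood lowest of all 8 libraries and the other three IL-6 KO libraries highest. Mybl2 read 504, 883, 459 and 719 in WT and 646, 920.0, 974 and 795 in IL-6 KO, and Espl1 1238, 858, 549.6 and 791 in WT and 1209, 1028, 1216 and 630.4 in IL-6 KO. Mad2l1 read 182, 152, 191 and 178 in WT and 613, 105, 256 and 133 in IL-6 KO. The last had a log2 fold change of −0.20 without IL-6 KO 1. The log2 fold changes of these 5 genes were 0.69, 0.44, 0.41, 0.26 and 0.30 (adjusted p = 0.667, 0.779, 0.716, 0.848 and 0.888).

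**Figure D4:**
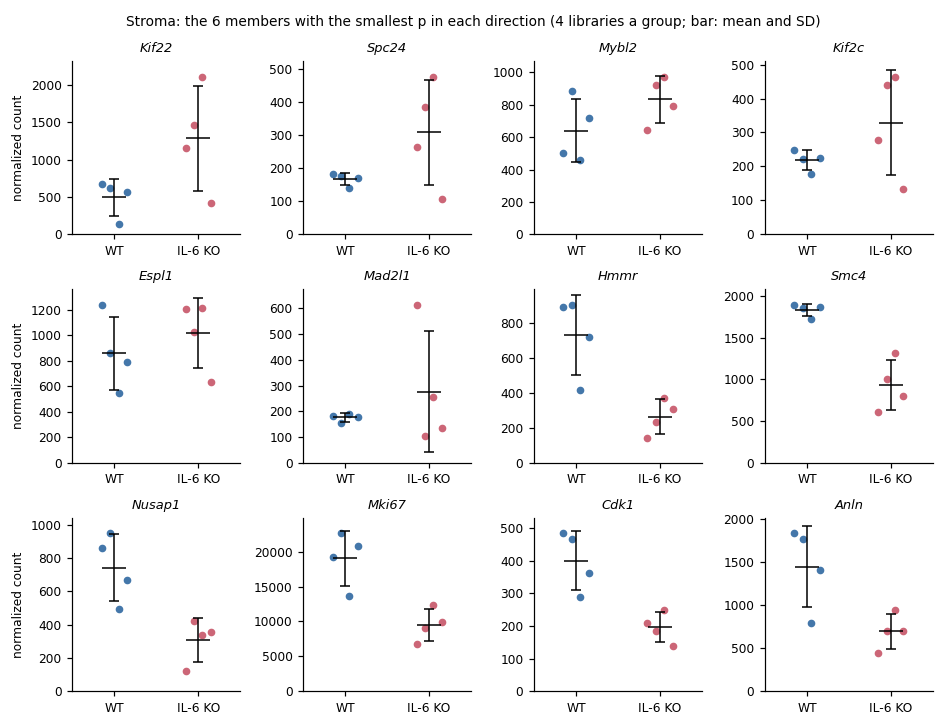
Normalized count in each stroma library (points; 4 WT and 4 IL-6 KO) with mean and SD for the 6 members with the smallest p in each direction; axes start at 0. Hmmr, Smc4, Nusap1, Mki67 and Cdk1 do not overlap between groups, while Kif22, Spc24, Kif2c and Mad2l1 spread widely among the IL-6 KO libraries; none passed the test.

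Within stroma the members' sum differed between libraries of one genotype. Their summed normalized counts were 74394, 82725, 50599.8 and 74952 in WT and 37534, 47828, 64872 and 39478 in IL-6 KO, so the genotypes overlapped at WT 3 and IL-6 KO 3. Summed over all genes, normalized counts were 8.81e+06 to 1.75e+07 in WT and 3.4e+07 to 4.42e+07 in IL-6 KO. The members were thus a smaller share of the signal in IL-6 KO, and how many reads their values rest on is not known. IL-6 KO 1 was the lowest of the 8 libraries for 28 members and IL-6 KO 4 for 17, whereas WT 2 was the highest for 16, WT 1 for 14 and IL-6 KO 3 for 13. The 25 erythroid markers summed to 178967, 229280, 170992 and 246345 in WT and 77606, 181409, 297708 and 73641 in IL-6 KO, and 23 of the 25 had negative differences with a median log2 fold change of −0.73 (9 lower and none higher at an unadjusted p under 0.05, none at an adjusted one). IL-6 KO 1 and IL-6 KO 4 were thus the lowest libraries for both sums. Mature neutrophil markers ran the other way, with sums of 11398 to 19825 in WT and 39560, 37875, 11402 and 38118 in IL-6 KO, lowest in the one IL-6 KO library where the members and the erythroid markers were highest. The 14 B-lineage markers summed to 1973, 3069, 1873 and 2781 in WT and 862, 2091, 1349.7 and 955 in IL-6 KO, and 10 of the 14 had negative differences with a median log2 fold change of −0.61 (2 lower and none higher at an unadjusted p under 0.05, none at an adjusted one). IL-6 KO 1 and IL-6 KO 4 were the lowest libraries for this sum too. The part of these cell types in the members' values was not tested. Without IL-6 KO 1, the library lowest for most members, 12 members were lower and none was higher at an unadjusted p under 0.05, and without WT 2, the highest, 11 were lower and 1 higher. The shares of all genes at this threshold in these fits are not given here, so a general loss of power cannot be told apart.

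**Figure D5:**
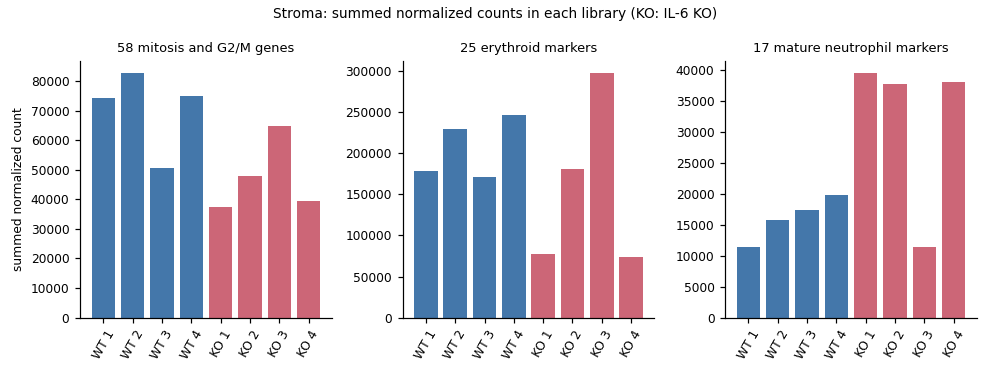
Summed normalized counts (vertical) in each of the 8 stroma libraries (blue, WT; red, IL-6 KO) for the 58 mitosis and G2/M genes, 25 erythroid markers and 17 mature neutrophil markers. IL-6 KO 1 and 4 are lowest in the first and second panels and among the highest in the third, and IL-6 KO 3 shows the reverse within its group.

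Related genes were read in stroma in the same way. Of 118 other mitotic genes none passed, 25 were lower and 2 higher at an unadjusted p under 0.05, and 87 differences were negative, with a median log2 fold change of −0.46. Of all genes tested in stroma, 5.2% were lower and 3.95% higher at that unadjusted p. Of those with the smallest p, Depdc1b and Depdc1a had log2 fold changes of −1.37 and −1.67 (adjusted p = 0.302 and 0.324). Of the 44 DNA replication genes none passed, 3 were lower and 3 higher at an unadjusted p under 0.05, and the median log2 fold change was −0.23. The origin recognition subunit Orc1 and the helicase subunit Mcm2 had opposite signs, with log2 fold changes of −2.04 and 1.93 (adjusted p = 0.432 and 0.458).

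Seen side by side, Ccna2, Ect2 and Nusap1 had negative log2 fold changes in tumor (−0.51, −0.33 and −0.24) and in stroma (−0.94, −1.01 and −1.36). Espl1, Spc24, Kif22, Kif2c and Mybl2 had positive ones in both. With GC and length trends removed, the tumor value was −0.42 for Ccna2 but only −0.051 for Ect2, −0.018 for Nusap1 and 0.041 for Mybl2. Ncapd2, Ube2c, Birc5 and Cdc20 were positive in tumor and negative in stroma, where they stood at −0.61, −1.04, −0.64 and −0.37. So were Tpx2, Kif4, Bub1b and Tacc3, at −0.59, −0.46, −0.42 and −0.15 in stroma, and Plk1 and Aurkb, near 0 at −0.083 and −0.021. Of the genes that rose in tumor, only Espl1, Spc24, Kif22 and Kif2c were thus positive in stroma. Only the tumor values of Ccna2, Ect2 and the genes that rose in tumor passed the test, and no difference between compartments was tested. Nusap1 and Mybl2 did not pass in tumor. By promoter, the 32 members with both CCAAT and CHR held 8 of the 14 that rose and 1 of the 2 that fell in tumor, the 16 with a window but without both held 3 and none, and the 10 without a window held 3 and 1. In stroma the median log2 fold changes of these 3 sets were −0.53, −0.77 and −0.32.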

How the data were processed

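Transcripts were quantified by the authors with Salmon 1.3.0, its GC and sequence bias options on, against mm10, from rRNA-depleted, directional, single-end 75-nt libraries. The deposited normalized counts are a scaled signal, made by the authors with DESeq2 1.28.1 size factors separately for tumor (15080 genes) and stroma (13344 genes). The methods state one approximate sequencing depth for all libraries, and read totals of single libraries were not used here. Whole reads could not be recovered, so no count test and no counting interval was used. The authors' own test results were deposited as well (means, fold changes, p-values) and were not used.

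Groups came from the sample labels, and all 16 libraries were used. Normalized counts were tested as log2(normalized count + 1) with limma 3.58.1 (trended variances) in R 4.3.3, with genotype as the only term and a separate fit for each compartment, on genes with a mean over 10. Tests were two-sided with Benjamini-Hochberg adjustment over all genes tested and a threshold of 0.05, and the procedure was tested on simulated data. All 58 members passed the filter in both tables. Fold changes on this scale understate those of low genes. GC content, positions and lengths came from GENCODE vM21 on GRCm38, which held 15069 tumor and 13338 stroma identifiers without their version. Near-identical copies (97% identity over 150 nt) were found with BLAST 2.17.0. Promoters came from RefSeq, GRCm38.p6.

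The members, role groups and lists were chosen with earlier results of these data known, so no list received a test of its own. Values in every library are given for the 6 members with the smallest p in each direction and compartment and for Mki67, Top2a, Ccnb1, Cdk1, Cdc20, Plk1, Aurka, Aurkb, Birc5 and Foxm1. Of other lists, at most 3 genes with the smallest p are named. Alternatives were pseudocounts of 0.5 and 5, no filter, a mean over 50, quantile normalization, centring on library medians, array weights, no variance trend, a replicate block, removal of GC and length trends (loess, span 0.3), and leaving out each library.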

Additional observations from a re-analysis of the deposited data

Results flagged for a closer look

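In 9 of the 138 groups of 4 libraries examined (members named with values, each genotype and compartment), the gap between one library and the nearest other divided by the group's range exceeded Dixon's critical value, which chance alone brings about in about 1 group in 20. In tumor, WT 1 stood above the other WT libraries for Cdk1 (4358 normalized counts, others 3250.5 to 3420), Plk1 (5273, others 4480.4 to 4485) and the chromokinesin Kif4 (3908, others 3409 to 3481). WT 2 stood below them for Spc24 (1280.3, others 1398 to 1416), and IL-6 KO 2 above its group for Spc25 (1356, others 1176 to 1202).

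In stroma, WT 3 stood below the other WT libraries for Cenpe (1452, others 2129.98 to 2259), Top2a (3432, others 5881 to 6274) and Ncapd2 (939.6, others 3068 to 3223). IL-6 KO 3 stood above its group for the checkpoint kinase Bub1 (269, others 60.8 to 94.2).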

How the results depend on the processing

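Over the 10 alternatives that used every library, 40 of 58 members in tumor and 51 of 58 in stroma kept their direction in all, and 5 of the 16 tumor calls passed in all (Birc5, Ccna2, Espl1, Ncapd2 and Spc24). The members called in tumor numbered 10 (9 higher, 1 lower) without the variance trend, 11 with quantile normalization and 7 to 23 when 1 library was left out, and all genes called in tumor 1569 to 3327 in the latter. The members' median log2 fold change in tumor was 0.021 with quantile normalization (0.024 over all genes), 0.16 with GC and length trends removed (0.071 over all genes) and 0.037 to 0.097 when 1 library was left out, lowest without IL-6 KO 3. In stroma no member passed under any alternative run, and all genes called numbered 4 with array weights, 6 without the variance trend, 2 with GC and length trends removed and 1 to 3 when 1 library was left out. Members at an unadjusted p under 0.05 numbered 12 to 23 in stroma when 1 library was left out, without the shares of all genes in those fits.

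Samples of the same number in WT and IL-6 KO showed little shared deviation (correlations from −0.029 to 0.13). This check gave no sign of pairing by number but cannot exclude it, and the labels do not say. With a replicate block 11 tumor members passed (10 higher, 1 lower), of which 10 were among the 16, and none in stroma.

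When each library was left out, 48 tumor and 45 stroma members kept their direction throughout. Among the members given with their values, signs turned as follows. In tumor, log2 fold changes became −0.034 for Hmmr and −0.020 for Top2a with quantile normalization, and −0.026 for Foxm1, 0.071 for Smc2 and 0.19 for Mki67 with GC and length trends removed. In stroma, they became −0.16 for Foxm1, −0.069 for Mad2l1 and 0.10 for Aurkb with array weights, and −0.067 for Foxm1 with GC and length trends removed. Without 1 library, tumor values ranged from −0.095 to 0.030 for Aurka, −0.041 to 0.044 for Hmmr, −0.084 to 0.049 for Mki67 and −0.0098 to 0.18 for Ncapg. Stroma values ranged from −0.21 to 0.17 for Aurkb, −0.12 to 0.26 for Foxm1, −0.20 to 0.65 for Mad2l1 and −0.30 to 0.19 for Plk1. Among the rest, signs turned in at least 1 alternative with every library for Anln, Bub1, Bub3, Incenp, Kif15, Kif20b, Mad2l1, Ndc80, Nuf2, Plk4, Prc1, Racgap1 and Smc4 in tumor and Cdca2, Incenp, Prc1 and Racgap1 in stroma, and without 1 library for Anln, Bub3, Cdca8, Kif20b, Mad2l1 and Pttg1 in tumor (−0.11 to 0.16, the extremes both in Mad2l1) and Bub3, Cdca2, Cenpa, Cenpf, Incenp, Kif20b, Ncapg, Prc1 and Racgap1 in stroma (−0.62 in Cenpa to 0.47 in Ncapg). The cause of these shifts was not tested. The methods give one approximate depth for all libraries, so the error of low values, such as those of Ttk and Pttg1 in stroma, is known only from the spread of 4 libraries.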

Other observations

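Cyclin A2 and B1 RNA were also set against each other in stroma, which no comparison above uses. The ratio of Ccna2 to Ccnb1 in one library was 2.68, 1.79, 1.76 and 1.70 in WT and 1.45, 1.17, 2.02 and 2.65 in IL-6 KO, so that the genotypes overlapped, whereas in tumor they did not. The ratio of Ncapd2 to Smc4 in stroma was 1.65 to 1.70 in WT 1, WT 2 and WT 4, 0.546 in WT 3 and 1.36 to 1.97 in IL-6 KO. The difference between compartments was not tested.

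Erythroid markers in tumor, of which 18 were tested, had 1 that fell and none that rose, with sums of 14602 to 17722 in WT and 14847 to 17882 in IL-6 KO. Of 5 T and NK cell markers tested in tumor none passed, with sums of 1743 to 2047 and 1256 to 1634. Of 11 monocyte and macrophage markers 2 rose, Ly6c2 (2.08) and Ccr2 (1.22), and none fell. Most of that list went the other way, with 4 positive and 7 negative differences and a median log2 fold change of −0.15. Neutrophil precursor markers held 7 of 10 that rose, with sums of 2862 to 3194 in WT and 3818 to 4903 in IL-6 KO, led by Mpo (1.97), and 1 of 3 megakaryocyte markers fell. In stroma no marker of these lists passed. Their part in the members' values was not tested.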
